A study of Homo sapiens with 12 samples.

Results

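The mitochondrial ribosomal protein genes were taken as the protein-coding genes whose symbol, matched from the Ensembl identifier, is MRPL or MRPS followed by a number and, for some, a letter from A to C. This rule found 78 genes among the 61860 in each count table, 49 with an MRPL symbol (large subunit) and 29 with an MRPS symbol (small subunit), on 21 chromosomes. RNA had been sequenced from 22Rv1, a cell line of human prostate cancer that was established from a xenografted tumour. Cells were given siRNA against ETS1, a transcription factor of the ETS family, or siRNA against ZNF783, a zinc finger protein, and each siRNA had controls of its own, labelled only as the control group of that knockdown. All 4 groups held 3 libraries of the same line, grown in RPMI-1640 with fetal bovine serum. The siRNA sequences, the control agent and the time of harvest were not given in the sources used here. For these genes the comparison asks how their RNA levels in each siRNA group stood against the controls of that siRNA.

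The mitochondrial ribosome translates the few proteins encoded by mitochondrial DNA, which are core subunits of the respiratory chain and of ATP synthase. Its RNA comes from the mitochondrial genome, but all of its proteins are encoded in the nucleus, made in the cytosol and imported, so the particle depends on many unlinked nuclear genes being expressed side by side. MRPL proteins build the large subunit, which holds the peptidyl transferase centre and the exit tunnel, and MRPS proteins build the small subunit, which decodes the mRNA. A few symbols do not follow this division. MRPS30 and MRPS18A lie in the large subunit, and MRPS36 is now regarded as a subunit of the 2-oxoglutarate dehydrogenase complex.

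Total counts ran from 13518177 to 48996691 per library, and the members together took 0.442% to 0.488% of them. ETS1 siRNA replicate 1 stood apart before any comparison. A chi-square of its gene counts against replicates 2 and 3 of its group gave 35.6 and 34.3 per degree of freedom, where every other pair of replicates gave 1.32 to 2.70. ETS1 results are therefore given with and without that library, except that calls by gene group are counted without it, since no member and no listed gene was called over all libraries. ETS1 itself had 0 to 3 counts in each of the 12 libraries, controls included, so its knockdown could not be checked from these counts. ZNF783 stood at 28.7, 27.4 and 28.0 CPM (counts scaled to a library of 1e+06) with its siRNA and at 33.8, 34.9 and 35.7 CPM in the controls, a log2 fold change of -0.31 ± 0.06 (standard error, adjusted p = 2.46e-05). It was also lower with ETS1 siRNA, at 12.5, 18.7 and 18.5 CPM against 21.0, 21.6 and 22.3 CPM (-0.38 ± 0.15, adjusted p = 0.258, and -0.23 ± 0.06, adjusted p = 0.00146, without replicate 1), and the difference between the siRNAs did not pass the test (adjusted p = 0.925 over all libraries and 0.554 without replicate 1). Keratins of luminal epithelium, KRT8 and KRT18, stood at 403 to 657 CPM and 168 to 243 CPM. The summed level of 4 leukocyte markers was 0.134 to 0.521 CPM with CD3E at 0, that of 3 endothelial markers 0.0572 to 1.16 CPM, and that of 4 fibroblast markers, nearly all of it COL1A1, 14.5 to 28.6 CPM. Nothing in the labels ties replicates to separate cultures, so p-values measure the spread between these libraries, which may be technical.

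The promoters of 5 members named in the results below are shown first, each as the 120 bases before the RefSeq start site (GRCh38.p14). They are printed because an ETS factor was a target and ETS sites are a known feature of such promoters. Stretches of this length were read for 12 members, and these 5 include all 3 with an ETS match and the 1 with an NRF1 match, so they do not show how common the motifs are. The remaining 8, MRPL41 among them, hold none of the motifs searched. All but the last carry capitals. In MRPL20 and MRPS18A these mark the ETS motif CCGGAAG, in MRPS26 the same motif on the reverse strand, and in MRPL17 the core of the NRF1 motif, GCGCATGC, where the first run holds 2 overlapping matches on opposite strands. The positions are chr1:1407294-1407413 (minus strand) for MRPL20, chr6:43687792-43687911 (minus) for MRPS18A, chr20:3045932-3046051 (plus) for MRPS26, chr11:6683341-6683460 (minus) for MRPL17 and chr9:137551759-137551878 (plus) for MRPL41.
MRPL20: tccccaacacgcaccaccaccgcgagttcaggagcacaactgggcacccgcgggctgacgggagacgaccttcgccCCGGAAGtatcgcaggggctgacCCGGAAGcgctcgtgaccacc
MRPS18A: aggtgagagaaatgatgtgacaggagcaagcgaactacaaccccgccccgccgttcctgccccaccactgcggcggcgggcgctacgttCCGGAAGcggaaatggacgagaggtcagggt
MRPS26: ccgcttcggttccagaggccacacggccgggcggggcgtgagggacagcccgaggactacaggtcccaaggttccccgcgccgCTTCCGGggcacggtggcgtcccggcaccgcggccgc
MRPL17: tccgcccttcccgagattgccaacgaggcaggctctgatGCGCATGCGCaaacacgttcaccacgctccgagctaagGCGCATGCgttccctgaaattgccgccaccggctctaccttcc
MRPL41: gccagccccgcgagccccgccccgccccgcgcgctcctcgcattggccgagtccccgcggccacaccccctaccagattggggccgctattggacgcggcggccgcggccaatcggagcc

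A longer window, from 250 bases before to 50 after the start, was held for 69 of the 78 members. The ETS motif CCGGAAG was found on either strand in 29 of them (42.0%), against 14.4% of all 15301 protein-coding promoters of the same length and 17.9% of those whose genes were tested. The YY1 motif AAGATGGCG was found in 13 (18.8%), against 2.80% of all protein-coding promoters and 3.60% of those whose genes were tested. The NRF1 core GCGCATGC was found in 6 (8.70%), against 4.26% and 5.10%. Searches covered both strands, and no motif searched lies within another. A match is a run of letters and not a measured binding site.

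Levels in the controls were compared between members per exon length, as RPKM (counts per kilobase of exon, scaled for library depth). The median member stood at 19.6 RPKM, against 5.81 RPKM for the protein-coding genes tested, and 65 of the 78 members stood above that value. MRPS35, a small subunit protein, was highest, at 103.8 ± 5.08 RPKM (SD, n = 3) in the ETS1 controls and 83.5 ± 2.68 RPKM (n = 3) in the ZNF783 controls. After it came MRPL51 at 88.1 ± 2.996 and 78.8 ± 2.07 RPKM, and MRPL24 at 88.3 ± 6.26 and 71.4 ± 4.38 RPKM, whose levels differed from each other by less than their SDs in the ETS1 controls. MRPS26, at 64.5 ± 0.856 and 72.0 ± 0.691 RPKM, and MRPS34, at 64.9 ± 5.73 and 71.1 ± 2.83 RPKM, likewise could not be ordered. At the low end MRPL38 stood at 1.24 ± 0.0255 and 1.43 ± 0.158 RPKM and MRPL45 at 0.493 ± 0.0355 and 0.654 ± 0.0228 RPKM.

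**Figure D1:**
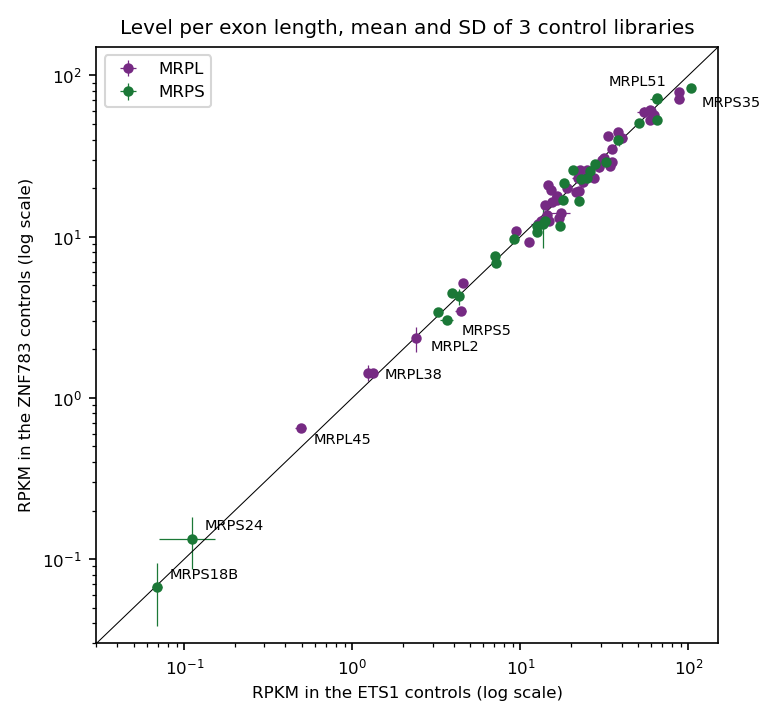
Level of each member per exon length (RPKM, log scales) in the ETS1 controls (x) and the ZNF783 controls (y), as mean and SD of 3 libraries, with MRPL symbols in purple, MRPS symbols in green and the line of equal levels. Most members lie between 10 and 100 RPKM, while MRPL45, MRPS24 and MRPS18B lie below 1, and MRPL53, with no count, is not drawn.

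Some members could not be studied. MRPL53 had 0 counts in all 12 libraries, MRPS18B had 1 to 6 counts and MRPS24 had 2 to 18 counts. All 3 were below the expression filter, except that MRPS24 passed it when ETS1 siRNA replicate 1 was left out. The order of the other members was much the same in the separate control groups (Spearman correlation across the 78 members 0.98, given as a description). Counting ignored strand, and 41 members overlap an exon of another gene, 29 of them on the opposite strand. In addition 34 members have pseudogenes named after them, 75 in all, among them 8 for MRPS21 and 5 each for MRPS36 and MRPL57. Values of such members are uncertain, since reads could be shared.

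With ETS1 siRNA, members stood mostly below the controls, but over all 6 libraries none of the 75 tested passed the test. Summed over all members the level was 4374, 4659 and 4661 CPM in ETS1 siRNA replicates 1 to 3, and 4817, 4875 and 4940 CPM in the controls. The mean fell by 6.42% against the controls, and it fell by 4.46% without replicate 1. All 3 siRNA libraries lay below all 3 controls, with replicate 1 the lowest. In bulk RNA, a lower level in all cells and a lower level in only some of them cannot be told apart. The median log2 ratio of the members to the mean of the controls was -0.27 in replicate 1, and -0.071 and -0.069 in replicates 2 and 3.

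**Figure D2:**
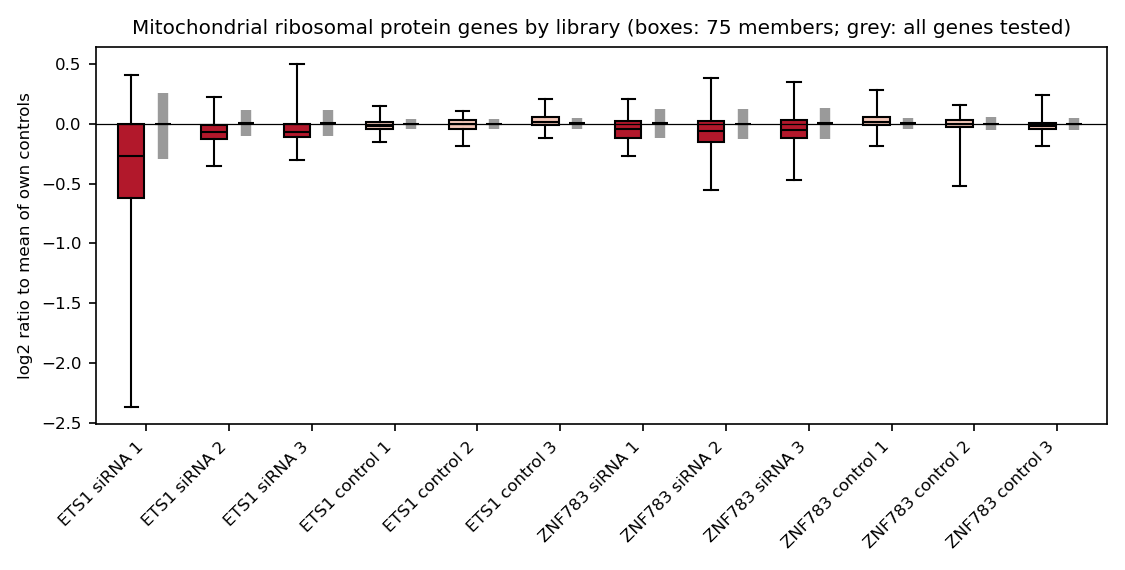
Log2 ratio of each tested member to the mean of its own controls, by library, with boxes for the quartiles and median of 75 members (dark for siRNA, pale for control libraries), whiskers to the lowest and highest member, and grey bars for the quartiles of all genes tested. The box of ETS1 siRNA replicate 1 has its median at -0.27 and reaches far lower than any other, and the boxes of the other siRNA libraries have medians between -0.07 and -0.05.

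Over all 6 libraries the median log2 fold change of the members was -0.12 (91.8% of the control level), against 0.0066 for all genes, and 58 of 75 lay below 0, against 48.7% of all genes. No member was called at an adjusted p below 0.05 (edgeR), while 8 had an unadjusted p below 0.05. The DESeq2 Wald test also called 0, and limma-voom with sample quality weights, which gives a library far from its group less weight, called 15 lower and 2 higher of 75, against 10.9% and 10.6% of all genes in that fit. Among all 19542 genes tested with edgeR, 5 were called higher (0.0256%) and 4 lower (0.0205%). With so few calls over all genes, the count of 0 members cannot tell them from the background. Levels of 27 members did not overlap between the groups on the lower side and those of 4 on the higher side, 36.0% and 5.33%, against 17.8% and 17.5% of all genes.

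Without replicate 1 the spread was smaller and 25 of 76 members fell, while 2 rose. The background in that fit was 13% of genes lower and 9.96% higher, so that the share of members lower (32.9%) was above it and the share higher (2.63%) below it. The median member then stood at -0.083 (94.4% of the control level), with all members between -0.30 and 0.38, none of them as much as 2-fold from the controls. The highest value was that of MRPL45, at 1.03, 0.891 and 1.39 CPM against 0.771, 0.881 and 0.869 CPM, which did not pass the test (adjusted p = 0.249). Of the genes with an MRPL symbol 13 of 48 fell and none rose. Of those with an MRPS symbol, MRPS18A of the large subunit included, 12 of 28 fell and 2 rose. Counting only the 36 tested members that overlap no other gene, 9 fell and 1 rose.

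MRPL41 (chr9:137551199-137552555), a large subunit protein whose promoter is printed above, had the lowest log2 fold change. Its level was 27.4, 56.3 and 55.1 CPM in ETS1 siRNA replicates 1 to 3, against 64.98, 64.7 and 74.7 CPM in the controls. Every siRNA library was below every control, and replicate 1 was far below the other siRNA libraries. The log2 fold change was -0.55 ± 0.25 over all libraries (adjusted p = 0.295) and -0.30 ± 0.06 without replicate 1 (adjusted p = 0.00278). MRPL11 (chr11:66435075-66466738), which forms part of the stalk base where translation factors dock, stood at 35.6, 52.1 and 55.1 CPM against 62.3, 61.2 and 65.7 CPM. Its groups did not overlap, and it fell by 0.25 on the log2 scale without replicate 1 (SE 0.04, adjusted p = 1.37e-06). Over all libraries its log2 fold change was -0.40 ± 0.15 (adjusted p = 0.248). MRPL28 (chr16:366969-371289), a structural protein of the large subunit, stood at 38.06, 59.3 and 55.4 CPM against 63.8, 64.0 and 71.8 CPM, with no overlap, and fell by 0.22 without replicate 1 (adjusted p = 0.0015). Over all libraries its log2 fold change was -0.38 ± 0.16 (adjusted p = 0.268). MRPL11 overlaps PELI3 on the opposite strand and MRPL28 overlaps TMEM8A on its own strand, while MRPL41 overlaps no annotated gene.

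MRPL12 (chr17:81703357-81707526), the stalk protein that also binds the mitochondrial RNA polymerase, rested on replicate 1. It stood at 3.88 CPM there, at 21.3 and 20.0 CPM in replicates 2 and 3, and at 23.3, 21.2 and 21.8 CPM in the controls. The log2 fold change was -0.52 ± 0.49 over all libraries (adjusted p = 0.557) and -0.10 ± 0.06 without that library (adjusted p = 0.214). MRPL14 showed the same shape, at 15.1 CPM in replicate 1 and 35.4 and 36.1 CPM in the others, against 35.4, 38.3 and 37.5 CPM in the controls. Its log2 fold change moved from -0.35 to -0.06 without replicate 1, neither past the test. MRPL54 stood at 8.79, 16.3 and 15.5 CPM against 15.5, 16.8 and 20.0 CPM, and its groups overlapped. Other large subunit members called lower without replicate 1 were MRPL4, MRPL34, MRPL24, MRPL52, MRPL21, MRPL37, MRPL20, MRPL16, MRPL17 and MRPL51, with log2 fold changes from -0.21 to -0.09. Among these MRPL4 stood at 74.0 CPM in replicate 1, above its controls at 68.5, 65.3 and 67.1 CPM. Over all libraries its log2 fold change was -0.08 ± 0.10 (adjusted p = 0.653). MRPL37 was also above its controls in replicate 1.

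Among the small subunit genes MRPS12 (chr19:38930548-38933162), a protein of the decoding centre, stood at 15.6, 37.9 and 38.5 CPM in the ETS1 siRNA libraries and at 43.4, 42.3 and 45.8 CPM in the controls. The groups did not overlap. Its log2 fold change was -0.50 ± 0.30 over all libraries (adjusted p = 0.379) and -0.21 ± 0.04 without replicate 1 (adjusted p = 0.000141). MRPS12 overlaps SARS2, the mitochondrial seryl-tRNA synthetase gene, on the opposite strand. MRPS36 stood at 11.55, 16.2 and 20.7 CPM against 22.4, 18.3 and 22.0 CPM, with overlapping groups, and did not pass the test without replicate 1 (-0.21 ± 0.16, adjusted p = 0.49). The other members with an MRPS symbol called lower without replicate 1 were MRPS2, MRPS18A, MRPS26, MRPS21, MRPS11, MRPS16, MRPS9, MRPS22, MRPS7, MRPS23 and MRPS27, from -0.22 to -0.09.

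At the other end stood MRPS5 (chr2:95087207-95149434), a small subunit protein at the mRNA entry side. Its level was 31.6, 28.5 and 28.2 CPM with ETS1 siRNA and 27.1, 23.2 and 23.3 CPM in the controls. Every siRNA library was above every control. It rose by 0.21 ± 0.05 without replicate 1 (adjusted p = 0.00354), and over all libraries the log2 fold change was 0.26 ± 0.09 (adjusted p = 0.221). MRPS10 (chr6:42206801-42217865) stood at 103, 86.5 and 87.0 CPM against 81.7, 81.9 and 77.4 CPM, with no overlap, and rose by 0.11 ± 0.03 without replicate 1 (adjusted p = 0.0191). Over all libraries MRPS10 did not pass the test. MRPL3, MRPL42 and MRPL19 were highest in replicate 1. MRPL19, for example, stood at 213 CPM there and at 165 and 158 CPM in replicates 2 and 3, against 161, 163 and 157 CPM in the controls. The log2 fold change of each lay between 0.15 and 0.16 over all libraries and between 0.0010 and 0.05 without replicate 1, and none passed the test. MRPS6, with 17.1, 17.7 and 19.5 CPM against 16.8, 16.6 and 17.0 CPM, did not pass it either (0.13 ± 0.06 without replicate 1, adjusted p = 0.109).

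With ZNF783 siRNA, where no pair of replicates stood apart, 16 of 75 members fell and 3 rose. The background was 13.8% of the 17630 genes lower and 11.3% higher, against 21.3% and 4% of the members. The median member stood at -0.055 on the log2 scale (96.3% of the control level), against 0.0017 for all genes, and 52 of 75 lay below 0, against 49.6% of all genes. The members summed to 4506, 4479 and 4514 CPM with the siRNA and to 4694, 4640 and 4589 CPM in the controls. These did not overlap, and the mean fell by 3.05%. By symbol, 13 of 48 MRPL genes (27.1%) fell and 1 rose, and 3 of 27 MRPS genes (11.1%) fell and 2 rose. Of the 36 tested members without an overlapping gene 8 fell and 2 rose. After the correction for GC content and length given below, 10 of 48 MRPL genes (20.8%) and 7 of 27 MRPS genes (25.9%) fell, against 11.3% of all genes. The order of the subunits by share lower was thus not kept. Levels did not overlap between the groups for 26 members on the lower side and 9 on the higher side, 34.7% and 12%, against 19.8% and 18.3% of all genes.

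**Figure D3:**
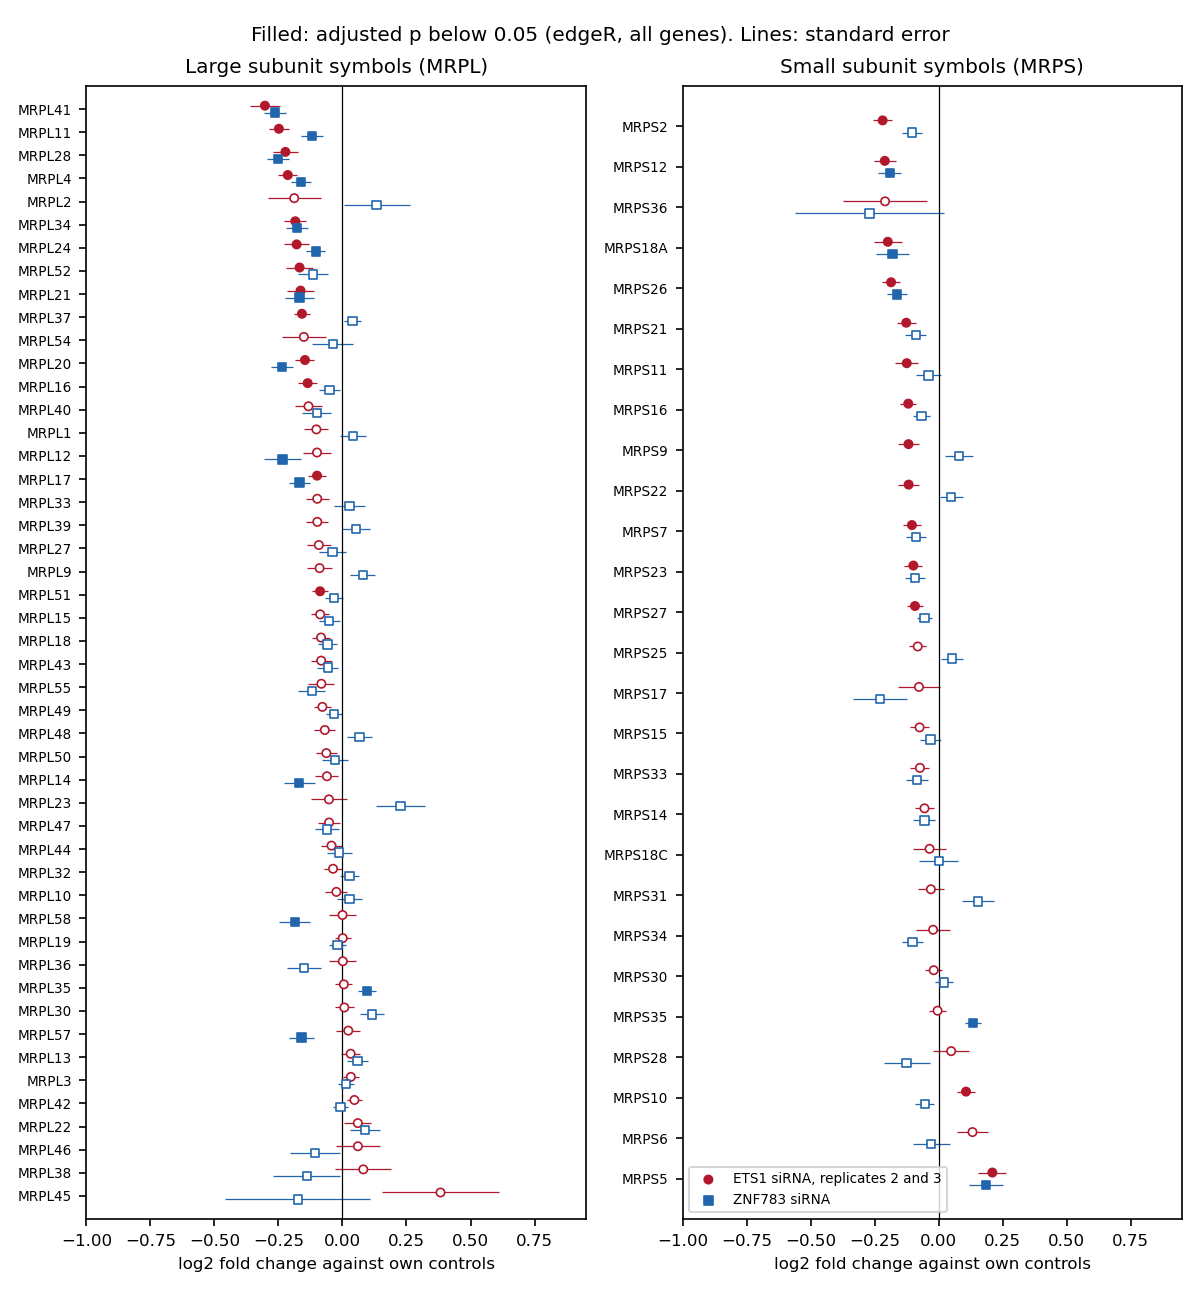
Log2 fold change against own controls, with standard error, of the 48 MRPL and 27 MRPS members tested, for ETS1 siRNA without replicate 1 (red circles) and ZNF783 siRNA (blue squares), ordered by the former. Filled symbols passed an adjusted p of 0.05 (edgeR, over all genes), and most of them lie left of 0, while MRPS5 at the foot of the right panel is filled on the right for both siRNAs.

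MRPL41 was again among the lowest, at 62.0, 61.0 and 63.7 CPM with ZNF783 siRNA and 79.6, 75.5 and 69.4 CPM in the controls. No library overlapped between the groups, and it fell by 0.26 ± 0.04 (adjusted p = 9.41e-06). MRPL28 stood at 59.0, 57.0 and 59.9 CPM against 68.2, 73.5 and 67.9 CPM and fell by 0.25 ± 0.04 (adjusted p = 1.05e-05). MRPL20 (chr1:1401908-1407313), a large subunit protein with 2 ETS motifs in the promoter printed above, stood at 62.0, 59.2 and 54.8 CPM against 67.7, 70.0 and 70.7 CPM. Its groups did not overlap either, and it fell by 0.24 ± 0.04 (adjusted p = 4.84e-05). MRPL12 stood at 16.5, 16.8 and 15.7 CPM against 19.9, 19.3 and 18.8 CPM and fell by 0.23 ± 0.07 (adjusted p = 0.0129). MRPL58, a peptidyl-tRNA hydrolase that rescues stalled ribosomes and also sits in the large subunit, stood at 24.8, 26.0 and 24.7 CPM against 27.8, 28.4 and 29.6 CPM and fell by 0.19 ± 0.06 (adjusted p = 0.0171). The calls of MRPL41, MRPL28 and MRPL20 held whichever library was left out, while that of MRPL12 was lost without siRNA replicate 3 (adjusted p = 0.059) or control replicate 1 (0.0634) and that of MRPL58 without siRNA replicates 1 or 3 or control replicate 3 (0.0575 to 0.0873). The other large subunit members called lower were MRPL34, MRPL14, MRPL17, MRPL21, MRPL4, MRPL57, MRPL11 and MRPL24, between -0.18 and -0.10. Of these MRPL14 overlapped between its groups, at 33.7, 34.8 and 36.0 CPM against 41.7, 41.8 and 34.2 CPM.

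Without the correction for GC content and length, 3 MRPS symbols were called lower with ZNF783 siRNA. MRPS12 stood at 48.8, 48.0 and 49.8 CPM against 56.0, 57.4 and 54.1 CPM, with no overlap, and fell by 0.19 ± 0.04 (adjusted p = 0.000897). MRPS18A, which lies in the large subunit, fell by 0.18 ± 0.06 (adjusted p = 0.0326), and MRPS26 fell by 0.16 ± 0.04 (adjusted p = 0.00112). MRPS18A lost its call without siRNA replicate 1 (-0.12, adjusted p = 0.269), control replicate 2 (0.131) or control replicate 3 (0.132). MRPS36 had the lowest log2 fold change of all but a wide spread, at 17.1, 11.9 and 16.5 CPM against 21.6, 12.1 and 21.0 CPM. Its groups overlapped and it did not pass the test (-0.27 ± 0.29, adjusted p = 0.591).

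The members that rose with ZNF783 siRNA were MRPS5, MRPS35 and MRPL35. MRPS5 stood at 23.1, 22.99 and 23.6 CPM against 20.5, 20.4 and 20.3 CPM (0.18 ± 0.07, adjusted p = 0.0316). MRPS35 (chr12:27710773-27756295) stood at 175, 186 and 183 CPM against 171, 160 and 166 CPM, and its log2 fold change was 0.13 ± 0.03 (adjusted p = 0.001). MRPL35 stood at 93.4, 95.1 and 93.6 CPM against 91.4, 84.2 and 88.2 CPM, close to the threshold (adjusted p = 0.0491). In all 3 the siRNA libraries lay above the controls. MRPL23, MRPS31 and MRPL30 had log2 fold changes of 0.23, 0.15 and 0.11 without passing the test (adjusted p from 0.0687 to 0.0716), and MRPL22 and MRPS9 had 0.09 and 0.08. MRPS5 lost its call whichever of the 6 libraries was left out (adjusted p from 0.0545 to 0.0719, log2 fold change from 0.18 to 0.19), and MRPL35 lost it in all cases but that of control replicate 1.

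The experiments do not share controls. Leaving out ETS1 siRNA replicate 1, 12 members were called lower with both siRNAs, which is 48% of those lower with ETS1 siRNA and 75% of those lower with ZNF783 siRNA. They were MRPL41, MRPL28, MRPS12, MRPS18A, MRPL34, MRPL21, MRPS26, MRPL4, MRPL20, MRPL11, MRPL24 and MRPL17. Among them MRPL4 and MRPS18A stood above their controls in the library left out. MRPS5 was called higher with both. The share of all genes called with both is not given here, so these counts and shares have no background beside them. Over all libraries 0 members were called with both. Across the 75 members the Spearman correlation of the log2 fold changes was 0.37, and 0.22 across the 17548 genes tested in both. Over all libraries these were 0.45 and 0.28 across 17481 genes. This describes points that share library, depth and base composition.

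**Figure D4:**
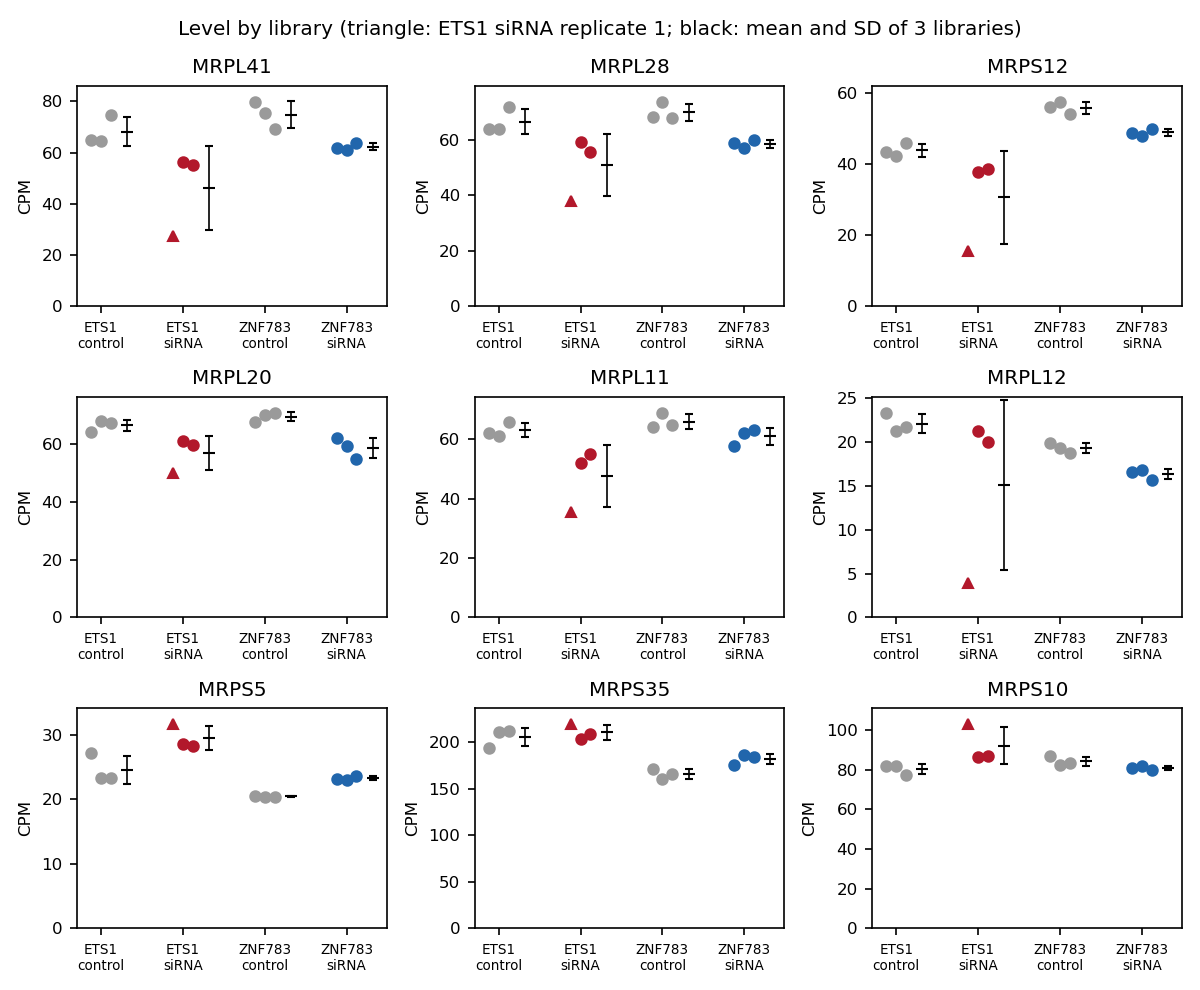
Level in CPM of 9 members in every library, from 0, with controls in grey, ETS1 siRNA in red (replicate 1 as a triangle) and ZNF783 siRNA in blue, and the mean and SD of 3 libraries in black beside each group. MRPL41, MRPL28, MRPS12 and MRPL20 lie below their controls in every siRNA library, MRPS5 lies above them in every siRNA library, and MRPL12 shows the 3.88 CPM of ETS1 siRNA replicate 1 far under the other libraries.

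Whether the effects of the siRNAs differed was tested in a joint fit as the ETS1 effect minus the ZNF783 effect. Over all libraries no member was called (edgeR, and DESeq2 likewise), 3 had an unadjusted p below 0.05, and the background was 1.11% of genes higher and 0.577% lower. Without ETS1 siRNA replicate 1 the test called 1 member higher and 3 lower, against a background of 6.25% and 7.41%. MRPL37 stood at 136 and 137 CPM in ETS1 siRNA replicates 2 and 3 against 155, 148 and 153 CPM, and at 157, 165 and 153 CPM with ZNF783 siRNA against 152, 154 and 157 CPM. The difference was -0.20 ± 0.04 (adjusted p = 0.000831), but replicate 1 stood at 184 CPM, and with it the difference was -0.02 ± 0.13. MRPS9 stood below its controls with ETS1 siRNA in all 3 replicates, at 40.1, 39.6 and 39.3 CPM against 43.1, 43.0 and 41.9 CPM, and above them with ZNF783 siRNA, at 33.2, 33.3 and 35.1 CPM against 32.8, 31.9 and 31.2 CPM. Its difference was -0.20 ± 0.07 (adjusted p = 0.0347), and over all libraries -0.17 ± 0.07 (adjusted p = 0.25). MRPS10 differed in the opposite direction (0.16 ± 0.05, adjusted p = 0.0227), and MRPS35 by -0.14 ± 0.05 (adjusted p = 0.0402). These 4 were named after their values were seen.

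Gene GC content moved with the fold changes. Members richer in GC stood lower, with a Spearman correlation of -0.54 across 75 members for ETS1 siRNA over all libraries, -0.47 across 76 without replicate 1, and -0.48 across 75 for ZNF783 siRNA. Across all genes tested the sign was the same, at -0.50, -0.36 and -0.38. Shorter members also stood lower. In the same order, the correlations with exon length were 0.42, 0.26 and 0.37 in the members, against 0.11, 0.05 and 0.05 across all genes. The part of GC and length in the calls was not tested beyond the correction that follows. With ZNF783 siRNA all 16 members called lower were among the 38 with GC at or above the member median of 47.6%, and none were among the 37 below it. With ETS1 siRNA without replicate 1, 19 of 38 members with higher GC fell and 6 of 38 with lower GC. The shares of all genes called lower in the same GC ranges are not given here. These splits are therefore not shown to be particular to the members.

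Each library was therefore also corrected for the GC content and length of genes. The number of members lower was kept or rose, at 35 of 76 for ETS1 siRNA without replicate 1 (background 12.3%) and 17 of 75 for ZNF783 siRNA (background 11.3%), but the members were in part different. Members higher were 1 (background 7.75%) and 2 (background 8.02%). Of the 25 members lower with ETS1 siRNA 21 were also called after the correction, while of the 16 lower with ZNF783 siRNA 6 were. MRPL41, for example, moved from -0.26 to -0.10 ± 0.04 with ZNF783 siRNA (adjusted p = 0.095), MRPS12 to -0.11 ± 0.04 (adjusted p = 0.0533) and MRPL12 to -0.12 ± 0.07 (adjusted p = 0.235). MRPS18A and MRPS26, whose promoters with an ETS match are printed above, lost their calls with both siRNAs. MRPL47, with a low GC content of 38.0%, went the other way, from -0.06 to -0.17 ± 0.05 (adjusted p = 0.00571). Among the members that rose, MRPS10 lost its call with ETS1 siRNA (0.05, adjusted p = 0.319) and was called lower with ZNF783 siRNA (-0.12, adjusted p = 0.01). With ZNF783 siRNA MRPS35 (0.06, adjusted p = 0.12) and MRPL35 (0.02, adjusted p = 0.707) lost their calls, and MRPL23 was called higher (0.34, adjusted p = 0.00635). MRPL19 was called lower with both (-0.09, adjusted p = 0.00442, and -0.10, adjusted p = 0.0107). MRPL28, MRPL34, MRPL20 and MRPL17 were the 4 members lower with both siRNAs with and without the correction, and MRPS5 was the 1 member higher in all of them. No share of all genes was set beside these counts. After the correction the trend with GC in the members had the opposite sign (0.31 for ETS1 siRNA without replicate 1, 0.18 for ZNF783 siRNA).

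**Figure D5:**
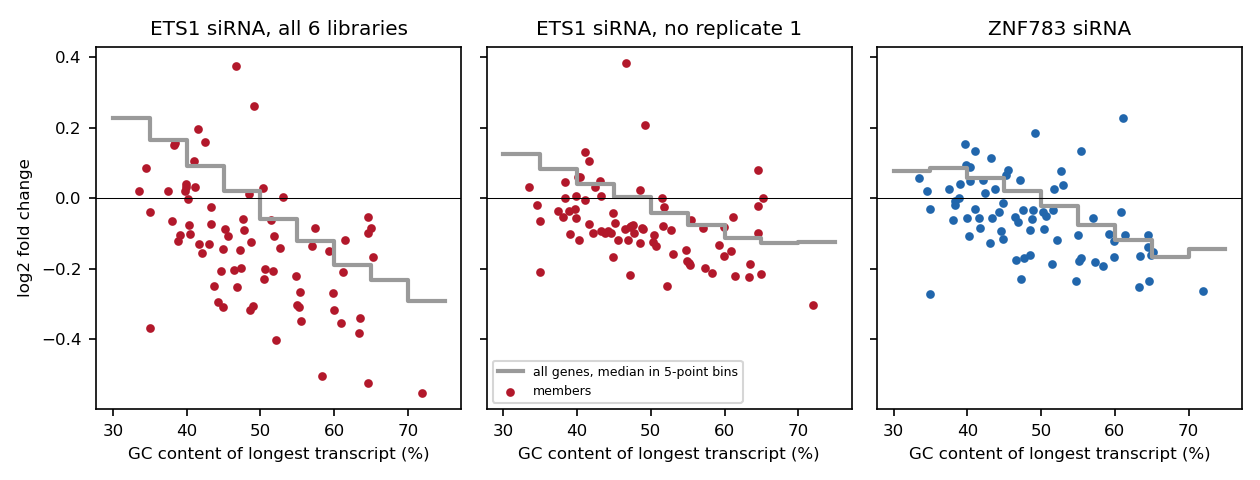
Log2 fold change against the GC content of the longest transcript for ETS1 siRNA with all 6 libraries, ETS1 siRNA without replicate 1, and ZNF783 siRNA, with 1 point per member and the grey line for the median of all genes in bins of 5 percentage points. In each panel the points and the line fall from left to right, and the points lie on both sides of the line.

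Members with the ETS motif in the promoter window had a median log2 fold change of -0.14 with ETS1 siRNA over all libraries, and those without it -0.10. Without replicate 1 the medians were -0.095 and -0.082. With ZNF783 siRNA the medians were -0.064 and -0.048. For the YY1 motif, with 13 members, the medians with and without it were -0.040 and -0.14 with ETS1 siRNA over all libraries, -0.0092 and -0.092 without replicate 1, and -0.055 and -0.057 with ZNF783 siRNA. For the NRF1 core, with 6 members, they were -0.10 and -0.12, -0.037 and -0.086, and 0.00024 and -0.057. No test was made of these differences, and over all members log2 fold changes ranged from -0.30 to 0.38 with ETS1 siRNA without replicate 1. Of the 12 members lower with both siRNAs, MRPL28, MRPS12, MRPS18A, MRPS26 and MRPL20 hold the motif in the window, and MRPL41, MRPL34, MRPL4, MRPL11, MRPL24 and MRPL17 do not, while no window was held for MRPL21.

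The MRPS18 family has 3 paralogous members, of which MRPS18A lies in the large and the others in the small subunit. MRPS18A (chr6:43671303-43687791) stood at 25.3, 20.7 and 20.0 CPM in the ETS1 siRNA libraries against 23.1, 23.3 and 23.5 CPM, so that replicate 1 was the highest library and replicates 2 and 3 the lowest. It fell by 0.20 ± 0.05 without replicate 1 (adjusted p = 0.00391), and over all libraries its log2 fold change was -0.09 ± 0.10. MRPS18C stood at 12.3, 15.1 and 15.7 CPM against 14.98, 16.5 and 15.7 CPM with ETS1 siRNA, and at 17.7, 15.8 and 16.1 CPM against 16.2, 16.1 and 17.5 CPM with ZNF783 siRNA. Its groups overlapped both times and it passed no test. MRPS18B was at or near the floor of 3 counts. MRPS30, whose product lies in the large subunit, stood at 135, 113 and 109 CPM against 109, 115 and 112 CPM with ETS1 siRNA and at 106, 108 and 106 CPM against 103, 107 and 104 CPM with ZNF783 siRNA, and passed neither test, but with the GC and length correction it was called lower with ETS1 siRNA without replicate 1 (-0.16, adjusted p = 1.08e-05). MRPL58, lower with ZNF783 siRNA, had a log2 fold change of 0.0002 ± 0.05 with ETS1 siRNA without replicate 1, and the difference between the siRNAs did not pass the test (0.19 ± 0.08, adjusted p = 0.104).

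Genes that work with these proteins were followed as lists, with ETS1 siRNA taken without replicate 1, since no listed gene was called with it. Of 5 mitoribosomal proteins that do not carry an MRPL or MRPS symbol, AURKAIP1 and GADD45GIP1 fell with ETS1 siRNA (-0.12 and -0.14), and with ZNF783 siRNA AURKAIP1 fell (-0.16) while PTCD3 rose (0.12). DAP3 and CHCHD1 passed neither test without the GC and length correction. Of 28 assembly factors, 6 fell and 1 rose with each siRNA. ERAL1, which chaperones the small subunit rRNA, stood at 88.0 and 88.3 CPM in ETS1 siRNA replicates 2 and 3 against 103, 100 and 104 CPM and fell by 0.23 ± 0.03 (adjusted p = 3.35e-07). TRUB2, a pseudouridine synthase, fell by 0.22 and YBEY by 0.29. DHX30, an RNA helicase needed for assembly, fell by 0.16 with ZNF783 siRNA, and GTPBP10, a GTPase of large subunit assembly, rose with both (0.13 and 0.18).

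Of 16 translation factors and mRNA-handling genes 3 fell and 1 rose with ETS1 siRNA, and 2 fell and 2 rose with ZNF783 siRNA. TUFM, the mitochondrial elongation factor Tu, stood at 340 and 343 CPM in ETS1 siRNA replicates 2 and 3 against 354, 356 and 378 CPM, and at 329, 337 and 331 CPM against 363, 362 and 357 CPM with ZNF783 siRNA. It fell with both (-0.09 and -0.12). MTRFR, a rescue factor, rose by 0.24 with ETS1 siRNA, and LRPPRC, which stabilises mitochondrial mRNA, rose by 0.11 with ZNF783 siRNA. Of 9 genes of mitochondrial DNA transcription and replication 2 fell with ETS1 siRNA, POLRMT, the mitochondrial RNA polymerase (-0.14), and TWNK, the helicase (-0.16). With ZNF783 siRNA 3 fell and 2 rose, POLRMT at -0.12 and POLG2 at 0.22 among them, and TFAM passed neither test. Of 10 nuclear regulators 2 fell and 1 rose with ETS1 siRNA, and 4 fell and 2 rose with ZNF783 siRNA. ESRRA, a nuclear receptor that drives mitochondrial genes, stood at 42.8, 102 and 101 CPM against 120, 123 and 129 CPM with ETS1 siRNA and at 117, 117 and 115 CPM against 131, 136 and 132 CPM with ZNF783 siRNA. It fell with both (-0.30 and -0.19). MYC fell by 0.25 with ZNF783 siRNA, while GABPA and GABPB2, which belong to the ETS-type factor NRF2/GABP, rose (0.15 and 0.20). The counts of calls in these lists lie beside a background of 13% lower and 9.96% higher for ETS1 siRNA and 13.8% and 11.3% for ZNF783 siRNA.

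The GC and length correction moved many of these calls. With ETS1 siRNA without replicate 1 the assembly factors then had 8 lower and 1 higher and the translation factors 7 lower and 1 higher, while with ZNF783 siRNA they had 2 lower and 1 higher, and 2 lower and 0 higher. The DNA transcription and replication genes had 2 lower with ETS1 siRNA and 1 lower and 1 higher with ZNF783 siRNA, and the regulators 2 lower and 1 higher with each. The background of the corrected fits was 12.3% lower and 7.75% higher with ETS1 siRNA, and 11.3% and 8.02% with ZNF783 siRNA. In the same order, the shares lower were 28.6% and 7.14% of assembly factors and 43.8% and 12.5% of translation factors. They were 22.2% and 11.1% of the DNA transcription and replication genes, and 20% and 20% of the regulators. Calls lost with both siRNAs were those of TUFM (-0.02, adjusted p = 0.516, and -0.05, adjusted p = 0.154), GTPBP10 (-0.0028, adjusted p = 0.966, and 0.08, adjusted p = 0.143), AURKAIP1 (0.01, adjusted p = 0.823, and 0.0014, adjusted p = 0.985) and POLRMT (-0.0070, adjusted p = 0.908, and 0.04, adjusted p = 0.446). GADD45GIP1 lost its call with ETS1 siRNA (adjusted p = 0.379), and with ZNF783 siRNA so did DHX30 (adjusted p = 0.0811), LRPPRC (0.166), ESRRA (0.124) and GABPA (0.336). DAP3 and CHCHD1, proteins of the small subunit, were then called lower with ETS1 siRNA (-0.10, adjusted p = 0.00651, and -0.15, adjusted p = 0.0114), and CHCHD1 with ZNF783 siRNA (-0.20, adjusted p = 0.00913). The calls of ERAL1, TRUB2, YBEY, MTRFR, TWNK and ESRRA with ETS1 siRNA and of PTCD3, POLG2, MYC and GABPB2 with ZNF783 siRNA held.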

How the data were processed

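The authors deposited 1 table of unnormalized counts for each siRNA experiment. Per the file headers, featureCounts 2.0.1 counted paired-end reads over the exons of each gene (GRCh38, annotation release 107), with no strand option. The submitters' processing notes name the build hg38. An aligner version was not given in the sources used here. Groups and replicate numbers come from the sample titles. Symbols were matched by identifier (61757 of 61860 genes, 99.8%), and coordinates, GC content and overlaps come from GENCODE release 29 (GRCh38, 1-based).

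Each siRNA was tested against its own controls over all genes with edgeR 4.0.16 in R 4.3.3: default expression filter, TMM scaling, robust quasi-likelihood F test, group as the only term, Benjamini-Hochberg adjustment over all genes, calls at an adjusted p below 0.05. Standard errors come from the F statistic. CPM are TMM-scaled, and per-library log2 ratios add 0.5. The difference of effects used 1 fit of all 12 libraries. No pair of replicates agreed within sampling noise, so none was merged. The GC and length correction entered a smooth curve per library (mgcv 1.9.3) as offsets. A count of 3, the floor for an undetected gene, equals 0.0612 to 0.222 CPM, which covers counting error only. The fits were checked on simulated counts without an outlying library or a GC trend, with planted changes larger than the calls of members here. That check therefore does not bear on such small changes, on the outlying library or on the GC trend. Alternatives were DESeq2 1.42.0 scaling and test, library size, other filters, limma 3.58.1 voom with quality weights, the replicate block, the correction, a joint fit and leaving out each replicate.

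Named were 8 members fixed for their roles, the 8 highest and 8 lowest log2 fold changes per siRNA among members with a mean of at least 10 CPM, the 5 highest and lowest control levels, and up to 4 genes with the smallest adjusted p per companion list. Other members are named where called. The ranks by log2 fold change and by adjusted p used the fits over all libraries, for ETS1 siRNA too. The ETS1 values of companion genes come instead from the fit without replicate 1, where the order differs. Genes called lower there but not named include NDUFAB1, an assembly factor (-0.18, adjusted p = 3.85e-05), and OXA1L, a translation factor (-0.13, adjusted p = 0.000976). The members and lists were chosen with earlier results of these data known. Some markers of the cell type label are not reported here.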

Additional observations from a re-analysis of the deposited data

Results flagged for a closer look

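The effects of the siRNAs differed past the threshold for 4 members once ETS1 siRNA replicate 1 was left out, and for none with it. These were 1 higher (1.33%) and 3 lower (4%) of 75, below the 6.25% and 7.41% of all genes. The difference in log2 fold change, ETS1 minus ZNF783, was -0.20 for MRPS9, -0.20 for MRPL37, -0.14 for MRPS35 and 0.16 for MRPS10. Replicate 1 lay far from replicates 2 and 3 for MRPL37 (184 against 136 and 137 CPM) and for MRPS10 (103 against 86.5 and 87.0 CPM), while for MRPS9 all 3 libraries were alike (40.1, 39.6 and 39.3 CPM).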

How the results depend on the processing

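Leaving out ETS1 siRNA replicate 1 raised the members called with ETS1 siRNA from 0 to 27, the GC and length correction on top of it gave 36, voom with quality weights on all 6 libraries 17 and the 12-library fit 1. The range over leaving out each replicate was 0 to 27, and only leaving out ETS1 siRNA replicate 1 gave any. With ZNF783 siRNA the 19 calls became 9 by the DESeq2 Wald test and 0 in the 12-library fit, which pools its spread with that of ETS1 siRNA replicate 1 (6 at an unadjusted p below 0.05), and ranged from 13 to 18 when a replicate was left out. The median log2 fold change with ZNF783 siRNA was -0.044 by library size alone, -0.069 with the correction, -0.071 with the correction and block and -0.067 in the 12-library fit, and -0.068 to -0.032 when a replicate was left out. Calls of a difference ranged from 0 to 4. For the named members, 496 alternative values kept direction and side of the threshold, 32 newly passed it and 51, all with ZNF783 siRNA, no longer did. The cause of these moves was not tested. With the replicate number as a block, 0 members were called with ETS1 siRNA and 20 with ZNF783 siRNA. Shares of all genes called are given above without ETS1 siRNA replicate 1, with the correction and with voom, but not for the other alternatives. The counts of calls in those other settings cannot be set against a background. Correlations of the deviations of same-numbered samples were -0.07 to 0.10 for ETS1 and -0.03 to -0.001 for ZNF783. Those of differently numbered samples were -0.13 to 0.12 and -0.02 to 0.03. These few values cannot settle whether the numbers are a pairing.

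Some log2 fold changes changed sign, the farthest from 0 being MRPL12 from -0.52, MRPL3 and MRPL42 from 0.16 and MRPL19 from 0.15 with ETS1 siRNA. Without ETS1 siRNA replicate 1, MRPL58 became 0.00020 and MRPS30 -0.020 (over each replicate left out, from -0.12 to 0.00020 and from -0.020 to 0.14). With voom they became 0.0046 and -0.0040. With the correction MRPS30 became -0.16, MRPS18A 0.072, MRPL42 -0.048, MRPL19 -0.029, MRPS6 -0.0063 and MRPL35 -0.097, and with the block as well -0.16, 0.055, -0.048, -0.031, -0.012 and -0.097. With the correction and without replicate 1, MRPL12 became 0.019, MRPL58 0.023, MRPS30 -0.16, MRPL3 -0.019, MRPL42 -0.048, MRPL19 -0.092 and MRPL35 -0.071. For ZNF783 siRNA, MRPS30 became -0.079 with the correction and -0.079 with the block as well. MRPS18C became -0.080 and -0.082 under these, -0.00087 with the block, -0.014 in the 12-library fit, and between -0.056 and 0.041 when a replicate was left out.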
